A study of Mus musculus and Bos taurus with 26 samples.

Results

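The Hox genes are the homeobox transcription factor genes that lie in 4 clusters, A to D, in mammalian genomes. All 39 mouse symbols made of Hox, a cluster letter and a paralog number were taken, without a filter on level, from a table of 27988 genes. The cattle table of 21577 genes holds the same 39 in upper case. In mouse the A cluster has 11 members, B 10, C 9 and D 9. Along each cluster the genes are numbered by paralog group, and low numbers act in the anterior body and high numbers in the posterior body. For the account below, groups 1 to 3 are called anterior (8 members), 4 to 8 central (15 members) and 9 to 13 posterior (16 members).

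Hox proteins bind DNA through their homeodomain, often together with TALE homeodomain partners of the Pbx and Meis families, and give cells their position along the head-to-tail axis. The clusters are a textbook case of Polycomb repression before gastrulation and of stepwise opening afterwards, with trithorax-type methyltransferases and retinoic acid acting in the opposite direction. Histone deacetylases HDAC1 and HDAC2 remove acetyl groups from histones, and KDM5B removes methyl groups from lysine 4 of histone H3.

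The series is polyadenylated-RNA sequencing of whole mouse and cattle embryos around zygotic genome activation, and its title places HDAC1 and HDAC2 in that activation. There were 22 mouse libraries in 11 groups and 4 cattle libraries in 2 groups, with 2 libraries in each group. Late 2-cell mouse embryos (36 h after fertilization) came from zygotes given water, Hdac1 WT mRNA, Hdac1 mutant mRNA, Hdac2 WT mRNA or Hdac2 mutant mRNA. Early 2-cell embryos (24 h) came from zygotes given Hdac1 WT or Hdac1 mutant mRNA. In a further pair of late 2-cell groups, zygotes given Hdac1 mutant mRNA received a second injection, of water or of Kdm5b mRNA, in both blastomeres at the early 2-cell stage. The last mouse pair was uninjected and was grown to the late 2-cell stage with 50 nM FK228, an inhibitor of class I histone deacetylases also called romidepsin, from the zygote on, or with DMSO in KSOM medium. The cattle pair, 8/16-cell embryos at 72 h, had the same 50 nM FK228 from the zygote on, or DMSO in BO-IVC medium. Every injected embryo kept its own Hdac1 and Hdac2 genes, and the labels do not name the mutation, so the mutant mRNA is called only that here. No label ties the 2 libraries of a group to separate cultures or litters, so p-values measure only the spread between these libraries. In whole embryos, fewer expressing cells and less RNA per cell cannot be told apart.

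The upstream sequence of a few members is shown because these genes turned out to behave in different ways. Hoxd1, Hoxd13 and Hoxa9 had the highest levels among members that rose with Hdac1 or Hdac2 mutant mRNA. Hoxa7 was the member present in every group. The letters are the 250 bases before the RefSeq transcript start, 5′ to 3′ on the gene's strand in build GRCm38.p6, with CG dinucleotides in capitals.
Hoxd1: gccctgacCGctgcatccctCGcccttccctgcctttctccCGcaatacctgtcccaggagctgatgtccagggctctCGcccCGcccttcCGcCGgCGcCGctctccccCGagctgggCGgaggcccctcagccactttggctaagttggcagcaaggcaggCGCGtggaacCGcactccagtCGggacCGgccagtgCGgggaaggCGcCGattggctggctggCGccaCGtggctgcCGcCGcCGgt
Hoxd13: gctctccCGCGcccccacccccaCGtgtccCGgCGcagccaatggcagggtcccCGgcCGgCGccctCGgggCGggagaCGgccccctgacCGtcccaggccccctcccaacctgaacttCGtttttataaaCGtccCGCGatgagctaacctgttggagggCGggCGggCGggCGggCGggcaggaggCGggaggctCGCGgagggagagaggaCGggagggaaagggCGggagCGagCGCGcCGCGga
Hoxa9: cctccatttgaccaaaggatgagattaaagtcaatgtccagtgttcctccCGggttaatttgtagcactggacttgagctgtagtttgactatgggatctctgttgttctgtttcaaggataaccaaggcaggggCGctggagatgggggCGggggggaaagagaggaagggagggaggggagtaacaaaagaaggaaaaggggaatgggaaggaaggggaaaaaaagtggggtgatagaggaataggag
Hoxa7: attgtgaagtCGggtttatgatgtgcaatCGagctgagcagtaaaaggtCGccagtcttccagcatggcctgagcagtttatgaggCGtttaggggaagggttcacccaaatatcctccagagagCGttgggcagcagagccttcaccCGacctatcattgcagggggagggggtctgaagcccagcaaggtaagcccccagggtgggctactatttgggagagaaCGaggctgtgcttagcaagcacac

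The Hoxd1 stretch is chr2:74762730-74762979 on the plus strand and directly precedes the annotated gene, chr2:74762980-74765142. The Hoxd13 stretch is chr2:74667975-74668224, also on the plus strand, at the opposite end of the D cluster. The Hoxa9 stretch, chr6:52227371-52227620, and the Hoxa7 stretch, chr6:52218574-52218823, are on the minus strand and lie inside longer GENCODE gene models of the same genes. Hoxd1 had 24 and Hoxd13 had 31 CG dinucleotides in these 250 bases, against 3 for Hoxa9 and 7 for Hoxa7. RefSeq promoter windows of 300 bases (250 before to 50 after the start) were on hand for 22 of the 39 members, as 24 entries. Their median was 14.5 CG dinucleotides, with a range from 4 to 45, against a median of 7 over all 32851 promoters. The letters CCAAT, read on both strands, occurred in 62.5% of the Hox windows and 37.4% of all windows, the GC box GGGCGG in 41.7% and 35.7%, the TATA box TATAAA in 16.7% and 13.6%, and the Hox-Pbx type site TGATNNAT in 16.7% and 8.85%. In its 300 bases Hoxd13 held the letters of a TATA box, a GC box and a CCAAT box, Hoxd1 those of a GC box and a CCAAT box, Hoxa9 those of a GC box, and Hoxa7 none of the 4. CG-rich and CG-poor starts both occurred among the members that rose in the comparisons below.

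The A cluster lies on chromosome 6. In GENCODE M21 the B cluster spans chr11:96194316-96368256 (173.9 kb), C chr15:102921103-103036852 (115.8 kb) and D chr2:74668310-74765142 (96.8 kb). Exons of 16 of the 39 members overlap those of another gene, on the same strand for 9 and on the opposite strand for 10. Whether the authors counted by strand is not given in the sources used here, so sense and antisense reads cannot be told apart at those genes. The members concerned include Hoxa7 (antisense Hoxaas3), Hoxc10 (Hoxc5 on the same strand) and Hoxd3 (Hoxd4 on the same strand).

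The values are FPKM, fragments scaled to gene length and to the mapped fragments of the library, so levels may be compared between genes, but the number of reads behind a value is unknown. Step sizes in the low values put the deepest mouse library at roughly 1.91 times the shallowest, and the cattle libraries within 1.16 times. Replicate libraries correlated across genes at r = 0.933 to 0.987 in mouse and 0.976 to 0.980 in cattle. The injected messages were present: Hdac1 stood at 4782 FPKM on average after Hdac1 mutant mRNA and 2833 after Hdac1 WT mRNA, against 90.8 after water, and Hdac2 at 2367 and 1618 after its mutant and WT mRNA, against 22.8 after water. FPKM cannot tell the mutant message from the WT or embryonic one. All 8 oocyte and 2-cell markers (such as Zp3, Gdf9 and Zscan4d) were above 0 in all 22 mouse libraries, summing to between 520 and 2413 FPKM, and DPPA4, GDF9, NLRP5 and ZP3 were above 0 in all 4 cattle libraries.

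In control 2-cell embryos the Hox set was close to silent apart from Hoxa7. Without Hoxa7, the other 38 members summed to 3.64 and 8.36 FPKM in the 2 libraries after water, 2.39 and 4.87 after Hdac1 WT mRNA, 8.84 and 8.38 after Hdac2 WT mRNA and 14.5 and 13.9 in DMSO. Of the 39 members, 2.5, 1, 4 and 5.5 on average reached 1 FPKM in those groups. Early 2-cell embryos given Hdac1 WT mRNA summed to 9.74 FPKM. Of all 858 mouse values for Hox genes, 182 were listed at exactly 0, which a table without counts cannot tell from a failed estimate.

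The embryos with mutant deacetylase or inhibitor carried far more Hox RNA. The same 38 members summed to 114 FPKM after Hdac1 mutant mRNA, 156 after Hdac2 mutant mRNA and 185 in FK228, and 26, 30 and 28.5 members on average reached 1 FPKM. The heat map of levels by gene and library shows this shift in all 4 clusters. Low values rose over all genes too. The median over all genes was 0.844 and 1.10 FPKM in the 2 libraries with Hdac1 mutant mRNA, against 0.265 and 0.408 with WT. It was 1.03 and 1.17 against 0.414 and 0.410 for Hdac2, and 1.09 and 1.11 in FK228 against 0.452 and 0.476 in DMSO. Genes at 1 FPKM or more numbered 13474 to 14554 in these treated libraries and 11284 to 12105 in their controls.

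**Figure D1:**
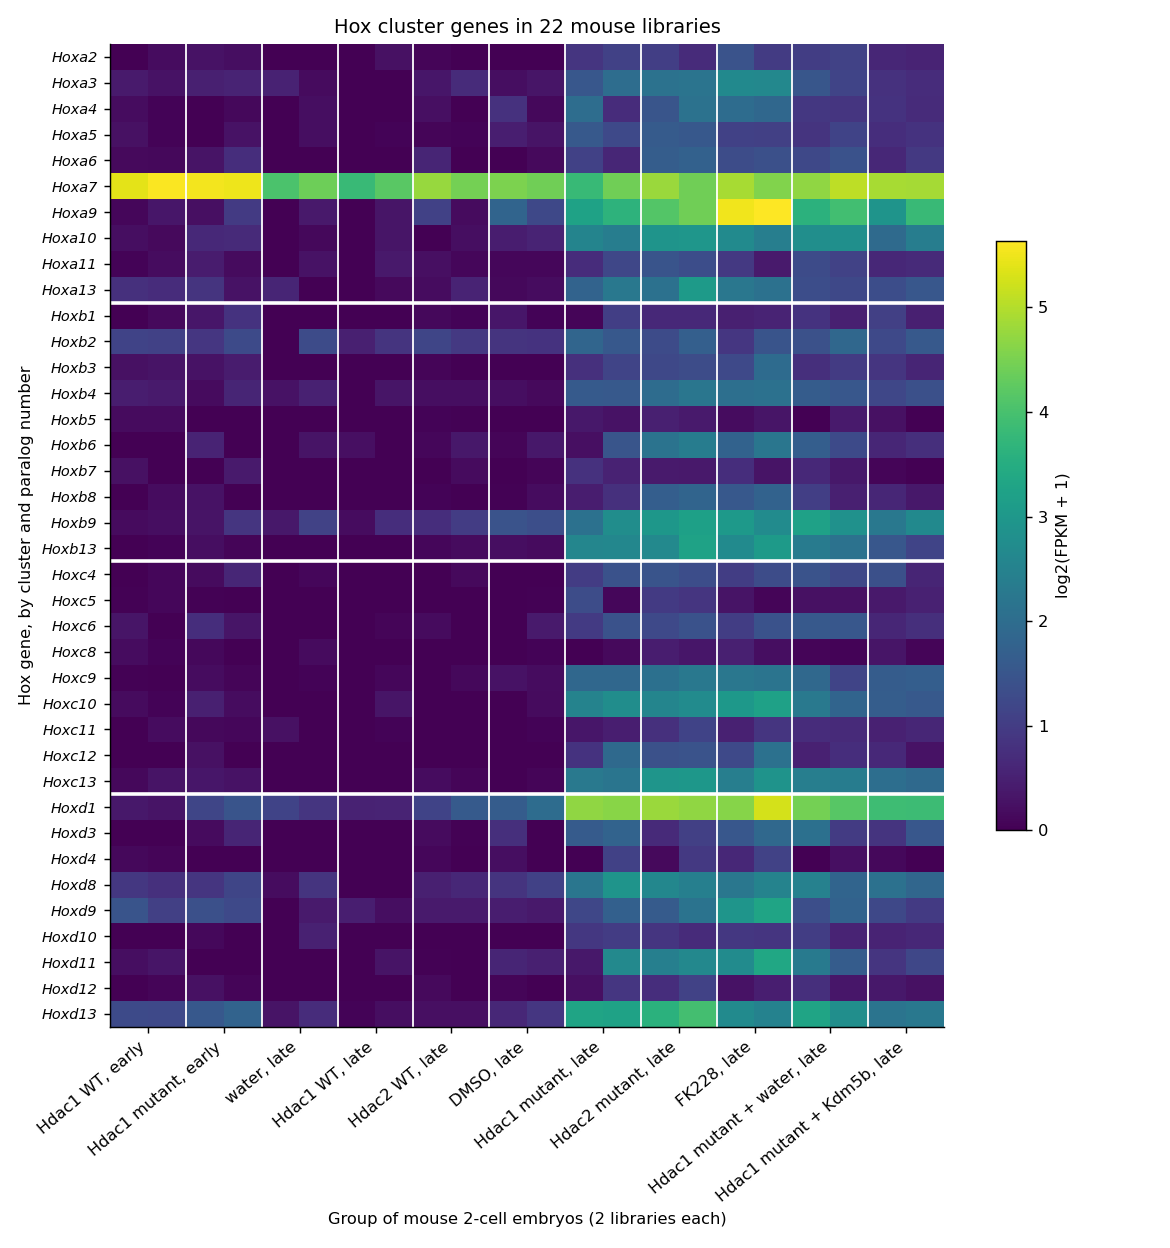
Heat map of log2(FPKM + 1) for 38 mouse Hox genes (vertical, by cluster and paralog number) in the 22 libraries (horizontal, by group), with brighter cells for higher levels and white lines between groups and clusters. Hoxa7 is bright in every library, and the other members are bright mainly in late 2-cell libraries with mutant mRNA or FK228.

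The first question was which Hox genes responded when HDAC1 or HDAC2 function was disturbed at the late 2-cell stage. Against embryos given WT mRNA of the same gene, 28 members were higher with Hdac1 mutant mRNA and 27 with Hdac2 mutant mRNA, and 29 were higher in FK228 than in DMSO. No member was lower in any of these. These calls are at an adjusted p under 0.05 (limma on log2(FPKM + 1), Benjamini-Hochberg over all 17336 genes at 1 FPKM or more in at least 2 libraries). In the same comparisons 30.5%, 30.8% and 31% of all tested genes were called higher. The filter let 32 members through, and Hoxb5, Hoxb7, Hoxc5, Hoxc8, Hoxc11, Hoxd10 and Hoxd12 fell under it. Since a silent gene passes such a filter only through the groups where it is high, all 39 members were also tested without it: 33, 33 and 32 were then higher and 0 lower, against 20.3%, 21.2% and 22% of all 27988 genes called higher. Starting level was also considered. Of the members under 1 FPKM on average in the control group, 33 of 38, 31 of 35 and 28 of 34 were higher, against 21.3%, 22.3% and 23.2% of all genes under that level.

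Both treated libraries exceeded both control libraries for 36 of 39 members with Hdac1 mutant mRNA, 38 with Hdac2 mutant mRNA and all 39 in FK228. The share of all genes separated in this way is not given here, so these counts have no background to be read against. The median log2 fold change of the 39 members was 1.22, 1.48 and 1.47, and over all 27988 genes it was 0.016, 0.042 and 0.034. A log2 fold change here is a difference of log2(FPKM + 1), which understates the change of low genes. The 3 comparisons use different control libraries. The share of all tested genes called higher in all of them is not given here. Members called higher in all 3 numbered 26. Of the 13 others, 7 were under the filter, and Hoxa7, Hoxb1, Hoxb2, Hoxb6, Hoxd3 and Hoxd4 were called in 0, 0, 1, 2, 2 and 1 of the 3. Quantile normalization, which forces all libraries to a common distribution, left 19, 26 and 26 members higher and 0 lower. It moved the share of all calls that were higher from 58.5% to 48.0% for Hdac1 mutant mRNA, from 58.1% to 48.2% for Hdac2 mutant mRNA and from 54.1% to 49.7% for FK228.

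Among anterior members, all 8 of them tested, 7 were higher with Hdac1 mutant mRNA, 5 with Hdac2 mutant mRNA and 6 in FK228. The shares of all tested genes called higher were 30.5%, 30.8% and 31%. Median log2 fold changes of the anterior members were 1.37, 1.03 and 1.47. Hoxd1, known for its part in wiring pain-sensing neurons, reached the highest mean level of any member with Hdac1 and with Hdac2 mutant mRNA. Its libraries stood at 0.461 and 0.482 FPKM with Hdac1 WT mRNA and 24.9 and 24.1 with the mutant, 1.18 and 2.03 and then 26.7 and 24.9 for Hdac2, and 2.1 and 2.98 in DMSO and 23.5 and 37.6 in FK228. All 6 treated libraries were at 23.5 FPKM or above and all 6 control libraries at 2.98 or below. The log2 fold changes were 4.11 ± 0.23 (adjusted p = 3.55e-09) with Hdac1 mutant mRNA, 3.38 ± 0.23 (adjusted p = 1.37e-08) with Hdac2 mutant mRNA and 3.13 ± 0.23 (adjusted p = 1.64e-08) in FK228, with ± the SE here and below.

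Hoxa3, needed for the thymus and parathyroid, was listed at 0 in both Hdac1 WT libraries and at 1.89 and 3.02 FPKM with the mutant. Its Hdac2 pair read 0.26 and 0.628 and then 3.37 and 3.53, and its drug pair 0.161 and 0.24 and then 5.44 and 5.21. Hoxa3 thus went from under 1 FPKM in all 6 control libraries to above 1 in all 6 treated ones, and was called higher in each comparison (adjusted p = 4.34e-06, 8.6e-06 and 1.22e-07).

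Other anterior members responded less evenly. Hoxb3, a hindbrain and pharyngeal gene, was listed at 0 and 1.83e-06 FPKM with Hdac1 WT mRNA and 0.722 and 1.24 with the mutant, 0.0518 and 0 and then 1.32 and 1.47 for Hdac2, and 0 and 0.00776 in DMSO and 1.37 and 2.93 in FK228. It was called higher in all 3 comparisons (adjusted p = 0.00152, 0.000213 and 1.29e-05), though not for Hdac1 after quantile normalization (adjusted p = 0.115). Hoxb2, which acts in the hindbrain, stood at 0.406 and 0.804 FPKM with Hdac1 WT mRNA and 2.58 and 1.95 with the mutant (adjusted p = 0.0205). In the other pairs its libraries lay closer, at 1.26 and 0.913 with Hdac2 WT mRNA against 1.44 and 2.27 with the mutant, and 0.807 and 0.769 in DMSO against 0.842 and 1.75 in FK228, and neither difference was called (adjusted p = 0.311 and 0.438). The Hdac1 call of Hoxb2 was lost with a pseudocount of 0.1 (adjusted p = 0.0927), after quantile normalization (0.382), with only the compared groups in the fit (0.0618), and without the mutant replicate 1 (0.105) or the WT replicate 1 (0.119).

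Hoxd3, a cervical vertebra gene whose model overlaps Hoxd4, was listed at 0 in both Hdac1 WT libraries and stood at 2.09 and 2.49 FPKM with the mutant, and its drug pair read 0.695 and 0 in DMSO and 1.88 and 2.75 in FK228. Both were called higher (adjusted p = 0.000465 and 0.00291), the second not without DMSO replicate 2 (adjusted p = 0.0543). For Hdac2 it went from 0.123 and 0.031 FPKM to 0.588 and 1.11, which did not pass the test (adjusted p = 0.0666). Further anterior members were Hoxa2, a hindbrain and branchial arch gene called higher in all 3 comparisons and between 0.616 and 1.71 FPKM in the treated libraries, and Hoxb1, a gene of the fourth hindbrain segment with at most 1.07 FPKM in any of them and no call.

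Central members had the lowest median of the 3 classes with Hdac1 mutant mRNA and with FK228. Of the 15 members, 11 passed the filter, and 8, 9 and 10 were higher in the 3 comparisons in the order above. Among all tested genes 30.5%, 30.8% and 31% were. The median log2 fold changes of the 15 were 0.75, 1.32 and 1.01. Hoxd8, which acts in the trunk and limbs, rose most of them with Hdac1 mutant mRNA. It was listed at 0 in both Hdac1 WT libraries and at 3.65 and 6.51 FPKM with the mutant, at 0.413 and 0.544 and then 5.15 and 4.44 for Hdac2, and at 0.801 and 1.12 in DMSO and 3.7 and 4.77 in FK228. Treated and control libraries did not overlap (adjusted p = 1.93e-06, 2.45e-05 and 0.000464).

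Hoxb4, used to expand blood stem cells in culture, stood at 0 and 0.246 FPKM with Hdac1 WT mRNA and 2.04 and 1.98 with the mutant, 0.164 and 0.164 and then 3.0 and 3.65 for Hdac2, and 0.163 and 0.108 and then 3.15 and 3.31 for the drug. Its 6 treated libraries were all at 1.98 FPKM or above, and it was called higher in each comparison (adjusted p = 1.22e-05, 6.52e-07 and 4.68e-07). Hoxa4, a cervical vertebra gene, was listed at 0 in both Hdac1 WT libraries and at 3.06 and 0.65 FPKM with the mutant, at 0.171 and 0 and then 1.78 and 3.33 for Hdac2, and at 0.744 and 0.0928 and then 2.97 and 2.67 for the drug. The 2 Hdac1 mutant libraries of Hoxa4 were far apart, and its call there (adjusted p = 0.0026) was lost without mutant replicate 1 (adjusted p = 0.0526) and with only the compared groups fitted (0.129). The Hdac2 and FK228 calls of Hoxa4 had adjusted p = 0.000488 and 0.00135.

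Hoxa6, a thoracic gene, read 1.14 and 0.511 FPKM with Hdac1 mutant mRNA, 2.17 and 2.39 with Hdac2 mutant mRNA and 1.47 and 1.6 in FK228, against 0 in both Hdac1 WT libraries, 0.494 and 0 with Hdac2 WT mRNA and 0 and 0.0991 in DMSO. Hoxb6, a trunk gene, read 0.181 and 1.8, then 3.43 and 4.16, then 2.43 and 3.62 in the same treated groups, against 0.176 and 0, then 0.0715 and 0.292, then 0.0582 and 0.291 in their controls. Hoxb8, which keeps myeloid progenitors dividing, read 0.368 and 0.718, then 2.22 and 2.51, then 1.95 and 2.43, against 0 in both Hdac1 WT libraries, 0.0319 and 0, then 0.0264 and 0.14. Hoxa6 was called higher in all 3 (adjusted p = 0.00559, 7.6e-05 and 0.000185), and so was Hoxb8 (0.0196, 3.83e-06 and 9.12e-06), while Hoxb6 was not called with Hdac1 mutant mRNA (0.0699) but was with the other treatments (8.3e-05 and 0.000248). After quantile normalization the Hdac1 calls of Hoxa6 and Hoxb8 were lost (adjusted p = 0.197 and 0.384), as they were with only the compared groups (0.06 and 0.0566), without mutant replicate 1 for Hoxa6 (0.0721) and without mutant replicate 2, WT replicate 1 or WT replicate 2 for Hoxb8 (0.138, 0.0653 and 0.0644). Of the other central members, Hoxa5, Hoxc4 and Hoxc6 were called higher in all 3 comparisons at 0.956 to 2.05 FPKM in the treated libraries, and Hoxd4 in FK228 alone (adjusted p = 0.0406), not without the level filter.

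Without the level filter, 15, 16 and 15 of the 16 posterior members were higher, against 20.3%, 21.2% and 22% of all genes. With the filter 13 were tested and all 13 were higher in each comparison, against 30.5%, 30.8% and 31% of tested genes. Median log2 fold changes of the 16 were 1.90, 2.22 and 1.99. The 4 members of group 13 had medians of 2.42, 2.82 and 2.32. The difference between posterior and other members was not tested.

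Hoxa9, a blood stem cell and leukaemia gene, had the highest value of any Hox gene in any mouse library, in FK228. It read 0 and 0.241 FPKM with Hdac1 WT mRNA and 8.56 and 11.5 with the mutant, 1.14 and 0.128 and then 16.6 and 20.4 for Hdac2, and 2.5 and 1.33 in DMSO and 44.6 and 48.9 in FK228. Treated libraries were all at 8.56 FPKM or above and control libraries all at or below 2.5, with log2 fold changes of 3.29 ± 0.36 (adjusted p = 1.58e-06), 3.64 ± 0.36 (adjusted p = 4.92e-07) and 4.06 ± 0.36 (adjusted p = 1.16e-07). Hoxd13, a gene of the digits and genital tubercle, read 0.0413 and 0.16 FPKM with Hdac1 WT mRNA and 8.79 and 8.58 with the mutant, 0.171 and 0.17 and then 11.1 and 14.6 for Hdac2, and 0.535 and 0.868 and then 5.53 and 4.66 for the drug. Its order differed from that of Hoxa9, with the drug libraries lowest among the treated ones. The log2 fold changes of Hoxd13 were 3.14 ± 0.22 (adjusted p = 2.26e-08), 3.55 ± 0.22 (adjusted p = 6.47e-09) and 1.85 ± 0.22 (adjusted p = 2.7e-06).

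**Figure D2:**
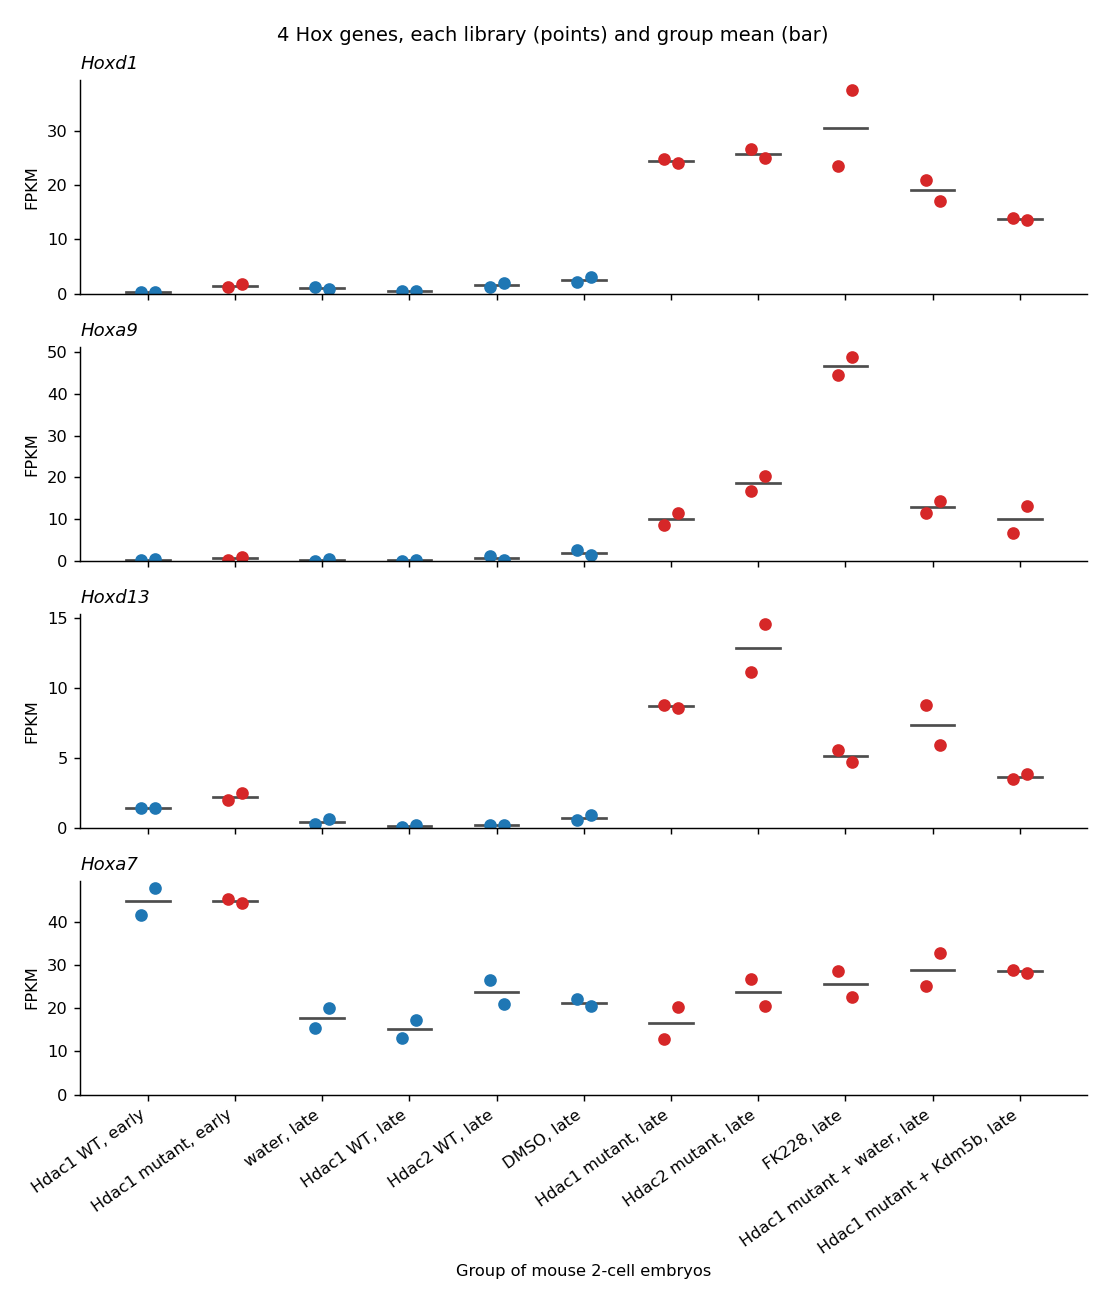
FPKM of Hoxd1, Hoxa9, Hoxd13 and Hoxa7 (vertical, linear axis) in each mouse group (horizontal), where points are libraries, short bars are means of 2 libraries, and red marks groups with mutant mRNA or FK228. Hoxd1, Hoxa9 and Hoxd13 are high in the late red groups only, and Hoxa7 is highest in the early 2-cell groups of both colours.

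Hoxa10, a uterus and femur gene, was at or below 0.486 FPKM in the 6 control libraries and at 4.87 and 4.21 with Hdac1 mutant mRNA, 6.59 and 6.76 with Hdac2 mutant mRNA and 5.51 and 4.3 in FK228. Hoxb13, a tail and prostate gene, was at or below 0.160 FPKM in those controls, listed at 0 in both Hdac1 WT libraries, and at 5.01 and 5.12, then 5.31 and 8.47, then 5.49 and 7.41 in the treated groups. Hoxc13, which governs hair and nail keratins, was at or below 0.138 FPKM in the controls, 0 in both Hdac1 WT libraries, and at 3.85 and 3.56, then 6.68 and 6.92, then 4.34 and 6.5 in the treated groups. These genes therefore went from near 0 to several FPKM in each treatment. Hoxc10, a lumbar motor neuron gene, did the same, with at most 0.255 FPKM in the controls and 4.75 and 5.8, then 4.91 and 5.61, then 6.98 and 8.31 in the treated groups. Adjusted p-values over the 3 comparisons ran from 1.97e-08 to 3.55e-07 for Hoxa10, 4.29e-08 to 1.12e-07 for Hoxb13, 9.29e-09 to 1.01e-07 for Hoxc13 and 9.12e-09 to 1.23e-07 for Hoxc10.

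Hoxb9, a thoracic gene, already had some RNA in the controls, at 0.137 and 0.669 FPKM with Hdac1 WT mRNA, 0.656 and 1.01 with Hdac2 WT mRNA and 1.7 and 1.56 in DMSO, and read 3.28 and 5.84, then 6.91 and 8.29, then 7.2 and 5.6 in the treated groups. Hoxa13, a digit and urogenital gene, read 0 and 0.0996, then 0.144 and 0.475, then 0.0878 and 0.146 in the controls and 2.47 and 3.82, then 3.32 and 7.4, then 3.68 and 3.31 in the treated groups. Hoxc9, which sets thoracic motor neuron identity, read 0 and 0.067, then 0 and 0.0894, then 0.207 and 0.147 in the controls and 2.69 and 2.7, then 3.23 and 3.79, then 3.72 and 3.49 in the treated groups. None of these overlapped between treated and control libraries, and adjusted p-values ran from 1.74e-05 to 0.000672 for Hoxb9, 1.43e-05 to 5.06e-05 for Hoxa13 and 6.06e-07 to 2.78e-06 for Hoxc9.

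Hoxd9 and Hoxd11 act in the limbs and trunk. Hoxd9 read 0.393 and 0.15 FPKM with Hdac1 WT mRNA and 1.29 and 2.31 with the mutant, 0.323 and 0.335 and then 2.09 and 3.45 for Hdac2, and 0.366 and 0.298 and then 6.63 and 8.79 for the drug (adjusted p = 0.00182, 0.000164 and 3.08e-07). Its Hdac1 call was lost after quantile normalization (adjusted p = 0.162) and with only the compared groups (0.0581). Hoxd11 read 0 and 0.238 FPKM with Hdac1 WT mRNA and 0.286 and 5.33 with the mutant, 0.0282 and 0 and then 4.4 and 5.23 for Hdac2, and 0.505 and 0.401 and then 5.64 and 9.31 for the drug. The 2 Hdac1 mutant libraries of Hoxd11 disagreed, and the call there (adjusted p = 0.0275) rested on replicate 2: without it the adjusted p was 0.613. It was also lost without the level filter (0.0576), after quantile normalization (0.082), with only the compared groups (0.328), and without WT replicate 1 (0.119) or WT replicate 2 (0.0525). Its other 2 calls had adjusted p = 0.000387 and 0.000347. Hoxc12, which was at 0 in both libraries of all 3 control groups, read 0.77 and 2.83 FPKM, 1.63 and 1.72, then 1.37 and 3.3 in the treated groups (adjusted p = 0.00136, 0.00104 and 0.000223), the first not called with only the compared groups (0.097).

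By cluster and without the level filter, 10 of 11 A members were higher in each of the 3 comparisons, 8, 7 and 7 of 10 B members, 8, 9 and 8 of 9 C members and 7 of 9 D members in each, against 20.3%, 21.2% and 22% of all genes. With the filter, 10 of the 11 tested A members were higher in each, 6 of 8 tested in B, 6 of 6 tested in C, and 6, 5 and 7 of 7 tested in D. The clusters were not tested against each other. Median log2 fold changes were 1.38, 1.64 and 1.47 for A, 0.86, 1.47 and 1.52 for B, 1.22, 1.32 and 1.17 for C, and 1.36, 1.48 and 1.41 for D. Within each cluster the size of the change varied widely from gene to gene, as the plot of fold change by paralog number shows.

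**Figure D3:**
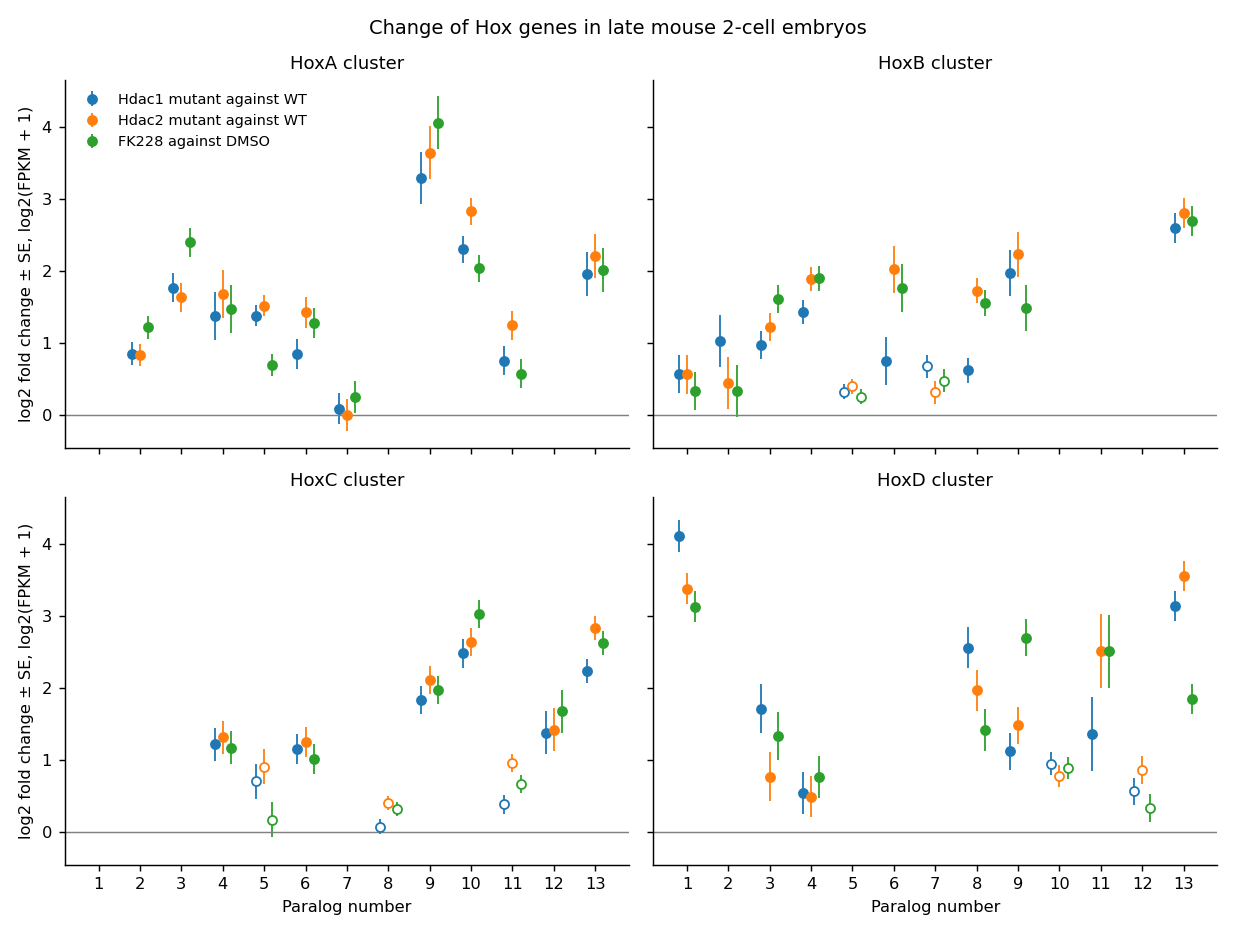
Log2 fold change of FPKM + 1 (vertical, points with SE bars from the limma fit without a level filter) by paralog number (horizontal) for 38 members of clusters A to D in the Hdac1 mutant, Hdac2 mutant and FK228 comparisons; open points are members under the level filter. Group 13 is at 1.85 or above in every cluster and treatment, Hoxd1, Hoxa9, Hoxc10 and Hoxd13 reach above 3 in at least 1 treatment, and Hoxa7 lies near 0.

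Hoxa7, a thoracic gene known with Hoxa9 as a target of the MLL methyltransferase, differed from most members, and like Hoxb1 it had no call in the 3 late comparisons. It was the member with the most RNA in every control group. It read 13.2 and 17.4 FPKM with Hdac1 WT mRNA and 12.9 and 20.2 with the mutant, 26.5 and 20.9 and then 26.9 and 20.4 for Hdac2, and 22.2 and 20.5 in DMSO and 28.7 and 22.7 in FK228. The first 2 pairs overlapped, and none of the differences was called (log2 fold changes 0.09 ± 0.22, adjusted p = 0.773 for Hdac1, -0.005 ± 0.22, adjusted p = 0.998 for Hdac2, and 0.25 ± 0.22, adjusted p = 0.356 for the drug). In early 2-cell embryos it was higher, at 41.7 and 47.8 FPKM with Hdac1 WT mRNA and 45.4 and 44.5 with the mutant. From the early to the late stage it fell in both groups, by 1.5 on the log2 scale with WT mRNA (adjusted p = 2.33e-05) and by 1.42 with the mutant (adjusted p = 3.81e-05). The annotated antisense gene Hoxaas3 averaged 0.747 ± 0.34 FPKM (SD, n = 2) with Hdac1 mutant mRNA.

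A second set of embryos was given Hdac1 mutant mRNA and then a water injection at the early 2-cell stage. Hdac1 averaged 861 FPKM in this set, against 4782 in the late embryos given the mutant mRNA alone. The water-only embryos are not described as injected again, so mutant mRNA and second injection cannot be told apart below. Against embryos given water only, 28 members were higher and 0 lower, where 34.5% of all tested genes were higher, and without the filter 32 of 39 were higher. The median log2 fold change of the members was 1.06, against 0.068 over all genes. Hoxd1 read 1.19 and 0.83 FPKM after water and 21 and 17.1 after Hdac1 mutant mRNA and water (3.32 ± 0.23, adjusted p = 2.07e-08). Hoxa9 read 0 and 0.311 and then 11.4 and 14.2 (3.58 ± 0.36, adjusted p = 7.22e-07), Hoxd13 0.222 and 0.637 and then 8.75 and 5.88 (2.53 ± 0.22, adjusted p = 1.65e-07), and Hoxa10 0 and 0.0805 and then 5.95 and 5.96 (2.74 ± 0.20, adjusted p = 3.42e-08). In this comparison Hoxa7 was also called, at 15.5 and 20.0 and then 25.2 and 32.8 FPKM (0.67 ± 0.22, adjusted p = 0.0174), but not after median-ratio scaling (adjusted p = 0.093), with only the compared groups (0.0732), without water replicate 1 (0.141) or without replicate 2 of the doubly injected group (0.151). After quantile normalization 19 members were higher and the share of all calls that were higher went from 65.5% to 47.7%.

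At the early 2-cell stage, 0 members were called with Hdac1 mutant against WT mRNA by limma (0.56% of all tested genes were called in either direction), and 2 had an unadjusted p under 0.05. Those 2 were Hoxd1, at 0.281 and 0.232 FPKM with WT and 1.25 and 1.75 with mutant mRNA (0.98 ± 0.23, adjusted p = 0.075), and Hoxa10, at 0.159 and 0.104, then 0.559 and 0.584 FPKM (0.47 ± 0.20, adjusted p = 0.661). Their early libraries did not overlap, and this was not particular to them. Both mutant libraries lay above both WT libraries for 14 of the 39 members and below them for 3. The share of all genes separated in this way at the early stage is not given here. The 38 members without Hoxa7 summed to 9.74 FPKM with WT and 15.6 with mutant mRNA at the early stage. The difference between the late and the early effect was called for 20 members, all larger at the late stage, where 36.4% of all tested genes were called in either direction. It was 3.13 ± 0.32 (adjusted p = 5.26e-06) for Hoxd1, 2.92 ± 0.50 (adjusted p = 0.000334) for Hoxa9, 2.73 ± 0.31 (adjusted p = 1.1e-05) for Hoxd13 and 2.48 ± 0.30 (adjusted p = 2.01e-05) for Hoxb13. Its median over the 39 members was 1.07, against 0.042 over all genes.

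Between the stages, few members were called lower in WT-injected embryos, and most tested members rose in mutant-injected embryos. With WT mRNA 5 members had an unadjusted p under 0.05 by limma. After adjustment 28.1% of all tested genes were called lower. That was a larger share than among the 32 tested members, of which 4 fell and 0 rose. Besides Hoxa7, these were Hoxd13 from 1.4 and 1.38 to 0.0413 and 0.16 FPKM (adjusted p = 0.000336), Hoxd9 from 1.75 and 1.1 to 0.393 and 0.15 (adjusted p = 0.00604) and Hoxd8 from 0.89 and 0.711 to 0 in both libraries (adjusted p = 0.0175). Late and early libraries of these did not overlap, but only 2 members were left without WT early replicate 1 or WT late replicate 2, since Hoxd8 and Hoxd9 then missed the threshold. Hoxd8 also missed it without WT late replicate 1 (adjusted p = 0.0567). The count also moved upwards, to 8 members lower with a pseudocount of 0.1, and to 8 lower and 1 higher with only the compared groups in the fit. With mutant mRNA 24 members rose (40.6% of all tested genes did) and Hoxa7 fell. These late libraries also serve in the late comparison above.

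**Figure D4:**
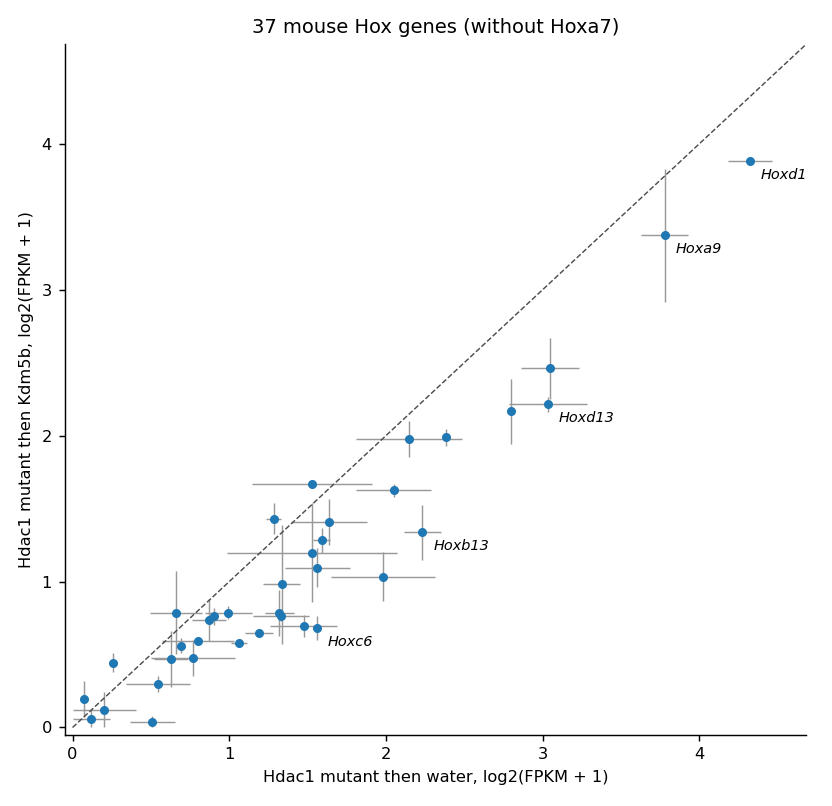
Mean log2(FPKM + 1) of 37 mouse Hox genes, Hoxa7 not among them, in late 2-cell embryos given Hdac1 mutant mRNA and then water (horizontal) or then Kdm5b mRNA (vertical), with bars for the range of the 2 libraries and a dashed line of equality. Of the points, 32 lie below the line, and none of the differences passed the adjusted threshold.

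The study also asked what added KDM5B does after the Hdac1 mutant injection. Kdm5b itself averaged 616 FPKM after its mRNA against 67.6 after water. The 38 members without Hoxa7 summed to 64.7 and 73.4 FPKM in its 2 libraries, against 115 and 98.1 after water, and 17.5 members against 26 reached 1 FPKM on average. Low values fell over all genes too. In the Kdm5b libraries 13412 and 13635 genes reached 1 FPKM, against 14411 and 14031 after water. The median over all genes was 0.835 and 0.892 FPKM, against 1.14 and 1.02. The summed blood markers listed further on also read lower, at 89.3 to 98.0 FPKM against 132 to 144, as did the fibroblast markers, at 17.1 to 21.6 against 22.5 to 30.3, with 0 of either list called; their part in the Hox result was not tested. No member was called by limma after adjustment, and 1.04% of all tested genes were called in either direction. At an unadjusted p under 0.05, 11 members were lower and 0 higher, where 7.84% of all tested genes were lower at that level. Both Kdm5b libraries lay below both water libraries for 21 of 39 members and above them for 1, where 21.1% of all genes lay below. The median log2 fold change was -0.33, against 0 over all genes.

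Hoxb13 read 4.1 and 3.33 FPKM after water and 1.88 and 1.22 after Kdm5b mRNA (-0.90 ± 0.21, adjusted p = 0.0593). Hoxd13 read 8.75 and 5.88 and then 3.48 and 3.81 (-0.82 ± 0.22, adjusted p = 0.0823). Hoxd1 read 21 and 17.1 and then 13.9 and 13.6 (-0.44 ± 0.23, adjusted p = 0.393). The libraries of these genes did not overlap, yet all were still above the water-only group, where Hoxd1 stood at 1.19 and 0.83 FPKM. Hoxa9 overlapped, at 11.4 and 14.2, then 6.55 and 13.2 FPKM (-0.41 ± 0.36, adjusted p = 0.652), and so did Hoxa7, at 25.2 and 32.8, then 28.9 and 28.3. The mutant-plus-water libraries are shared with the comparison against water above. Hoxd1, Hoxa9 and Hoxa7 had unadjusted p-values above 0.05. Members under it, besides Hoxb13 and Hoxd13, included Hoxa2, Hoxa3, Hoxa6, Hoxa10, Hoxa11, Hoxb6, Hoxc6 and Hoxc13.

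The sizes of the responses were compared between treatments with interaction terms. Between the Hdac1 and the Hdac2 mutant effect, 0 members differed by limma after adjustment (0.104% of all tested genes did), and 4 had an unadjusted p under 0.05. These were Hoxd1 (0.73 ± 0.32 log2 units larger for Hdac1), and Hoxb6 (-1.28 ± 0.46), Hoxb8 (-1.11 ± 0.29) and Hoxc13 (-0.60 ± 0.26), which were smaller for Hdac1. Without Hdac1 mutant replicate 2, 2 members were called smaller for Hdac1. Between Hdac1 mutant mRNA and FK228, Hoxd9 had the smaller effect with the mutant (-1.58 ± 0.37, adjusted p = 0.0195) and Hoxd13 the larger (1.29 ± 0.31, adjusted p = 0.0213), with 6.97% of all tested genes called in either direction. Between Hdac2 mutant mRNA and FK228, Hoxd13 again had the larger effect with the mutant (1.71 ± 0.31, adjusted p = 0.0134), with 2.08% of all tested genes called. With only the compared groups in the fit these 3 calls were lost (adjusted p = 0.109, 0.106 and 0.0639). Each was also lost without DMSO replicate 2 or FK228 replicate 2. Hoxd9 was lost as well with a pseudocount of 0.1 (0.237) and without DMSO replicate 1, Hdac1 mutant replicate 1 or Hdac1 WT replicate 1, Hoxd13 against the Hdac1 effect without Hdac1 WT replicate 1, and Hoxd13 against the Hdac2 effect without Hdac2 mutant replicate 2 or Hdac2 WT replicate 1.

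No member was called with the WT messages. Against water, 0 members were called with Hdac1 WT mRNA, where 2.19% of all tested genes were called in either direction, and 0 with Hdac2 WT mRNA, where 9.45% were. In both comparisons 0 members had an unadjusted p under 0.05 (limma). Hoxd1, for example, read 1.19 and 0.83 FPKM after water, 0.461 and 0.482 after Hdac1 WT mRNA and 1.18 and 2.03 after Hdac2 WT mRNA. A p that misses the threshold does not show that the levels were equal.

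Genes that work with or on the clusters were looked at as lists. Over all tested genes, 30.5%, 30.8% and 31% were higher and 21.6%, 22.2% and 26.3% lower in the Hdac1 mutant, Hdac2 mutant and FK228 comparisons, and the counts below stand against those shares, in that order. The TALE cofactors, which bind DNA beside Hox proteins, had 5 of 8 tested members higher and 1 lower in each comparison. With Hdac1 mutant mRNA, Pbx2 averaged 12.2 ± 4.56 FPKM against 2.62 ± 0.366 (SD, n = 2; adjusted p = 9.73e-06) and Meis1 1.85 ± 0.302 against 0.0646 ± 0.0914 (adjusted p = 0.0001), while Pknox1 fell from 6.74 ± 1.07 to 3.1 ± 0.696 (adjusted p = 0.00905). Meis2 was already abundant, at 65.1 ± 26.3 FPKM with WT and 82.1 ± 7.54 with mutant mRNA (adjusted p = 0.29). The ParaHox and Evx genes, relatives of the Hox genes outside or at the end of the clusters, had 5, 5 and 4 of 5 tested members higher and 0 lower. Cdx2, the trophectoderm and posterior-body factor, went from 0.488 ± 0.0901 to 13.3 ± 1.61 FPKM with Hdac1 mutant mRNA (adjusted p = 2.87e-08), from 0.807 ± 0.0153 to 14.7 ± 0.155 with Hdac2 mutant mRNA (3.41e-08) and from 0.779 ± 0.135 to 6.21 ± 1.47 in FK228 (2.16e-06). Pdx1, the pancreas factor, went from 0.145 ± 0.0459 to 3.89 ± 0.962 with Hdac1 mutant mRNA (2.54e-06).

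Chromatin regulators of the clusters were called in both directions. Over all 27988 genes the median log2 fold change was 0.016, 0.042 and 0.034; it was -0.015, 0.099 and 0.013 over the trithorax-type genes and -0.006, -0.22 and 0.031 over the Polycomb genes. Of 10 trithorax-type genes, 4, 4 and 4 rose and 3, 2 and 1 fell. Men1, the menin partner of MLL proteins, went from 5.14 ± 2.9 to 25 ± 3.9 FPKM with Hdac1 mutant mRNA (adjusted p = 1.32e-05), and Kmt2a, which encodes MLL itself, from 0.423 ± 0.19 to 1.88 ± 0.148 (0.00132). The 3 trithorax-type genes that fell in that comparison are not named here, so these do not stand for the list. Of 31 Polycomb genes, 11, 8 and 7 rose and 13, 11 and 10 fell, so the share that rose was close to or under that of all genes and the share that fell above it, a difference that was not tested. With Hdac1 mutant mRNA, Epop, a PRC2 accessory gene, went from 1.54 ± 0.613 to 82.5 ± 16.8 FPKM (1.06e-08). In the other direction, Mtf2, another PRC2 accessory gene, fell from 108 ± 24.2 to 24.3 ± 2.14 FPKM (3.6e-07) and the PRC1 subunit Pcgf6 from 69.8 ± 7.7 to 14 ± 0.193 (1.31e-07). Among PRC2 core genes, Ezh2 fell from 65.2 ± 2.61 to 47.3 ± 3.37 (0.00454) and Suz12 from 194 ± 17.8 to 129 ± 24.4 (0.00351). Of the 11 Polycomb genes that rose with Hdac1 mutant mRNA only Epop is named here.

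Of 17 tested retinoic acid pathway genes, 8, 11 and 11 rose and 1, 3 and 3 fell. Cyp26b1, which degrades retinoic acid, went from 0.0243 ± 0.0344 to 4.83 ± 0.495 FPKM with Hdac1 mutant mRNA (adjusted p = 1.69e-07), and Aldh1a3, which makes it, from 0.124 ± 0.175 to 5.41 ± 0.604 (9.88e-07). The receptor gene Rara rose from 5.53 ± 1.84 to 14.8 ± 1.37 (1.14e-05) while Rarg fell from 28.2 ± 3.98 to 20.1 ± 4.57 (0.0492). Of 5 tested posterior patterning genes, 4, 4 and 3 rose and 0 fell, with Wnt3, a primitive streak signal, going from 0.178 ± 0.251 to 4.09 ± 0.34 FPKM with Hdac1 mutant mRNA (8.21e-06). Non-coding genes inside the clusters, of which 10 of 21 listed were in the table and 7 were tested, had 6, 4 and 4 higher and 0 lower. Protein-coding neighbours outside the clusters, 19 tested without the Evx genes counted above, had 4, 5 and 6 higher and 7, 7 and 9 lower, so the share higher was not above that of all genes in the first 2 comparisons and close to it in the third. Snx11, beside the B cluster, rose from 22 ± 4.5 to 49.2 ± 1.42 FPKM with Hdac1 mutant mRNA (4.27e-05), and Cbx5, beside the C cluster, fell from 22.6 ± 2.19 to 2.9 ± 2.03 (7.84e-07). In these lists 0 genes were called at the early stage and 1 after Kdm5b mRNA, the retinoic acid synthesis gene Aldh1a1, named for its call, at 0.428 ± 0.206 FPKM against 3.19 ± 0.353 after water (adjusted p = 0.0172).

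Markers of other cell types moved with the Hox genes in the same libraries. Of 9 fibroblast markers in the table, 5 were tested, and all 5 rose in each of the 3 comparisons. Over all tested genes 30.5%, 30.8% and 31% rose. The fibroblast sum went from between 1.37 and 2.66 FPKM with Hdac1 WT mRNA to between 20.7 and 24.6 with the mutant. It went from 2.10 to 2.37 up to 36.9 to 38.6 for Hdac2, and from 1.77 to 2.98 up to 41.6 to 48.9 for the drug. Of the fibroblast markers, 5 were at 1 FPKM or more in every treated library of these comparisons. Others on the list stayed low. Col3a1 was at 0 in the Hdac1 and Hdac2 mutant libraries, and Dcn averaged 0.0497 FPKM or less in the treated groups. Of 9 blood markers, 5 were tested, and 5, 4 and 4 of those rose. The sums of all 9 went from 3.16 to 5.42 up to 103 to 118, from 5.18 to 7.39 up to 158 to 162, and from 9.56 to 15.4 up to 168 to 186. In every treated library 4 or 5 blood markers were at 1 FPKM or more, and others stayed low. The adult globin genes Hbb-bs and Hbb-bt were at 0 in both mutant groups and averaged 0.12 and 0.166 FPKM in FK228, and Ptprc, which marks white blood cells, averaged 0.197 or less. For both lists the members named are ones that stayed low, and those that rose are not named here. Of 12 cumulus and granulosa markers, 7 were tested, of which 4, 4 and 3 rose and 1 fell in each comparison. The sum of the 12 was lower in all 3, at 14.6 to 21.2 against 41.3 to 49.9 for Hdac1. It was 30.2 to 32.3 against 55.6 to 70.8 for Hdac2, and 23.9 to 35.9 against 63.5 to 67.7 for the drug. In both Hdac1 WT libraries only 1 of the 12 was at 1 FPKM or more, so 1 gene made up most of that sum. Without the level filter the median log2 fold change of the 12 was 0.27, 0.25 and 0.16. Of 7 sperm markers, 2 were tested and 1, 0 and 0 rose, with sums over the 7 of at most 8.45 FPKM in any mouse library. Of the 8 oocyte and 2-cell markers, all tested, 1 rose and 3 fell in each comparison. The part of these markers in the Hox result was not tested.

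Cattle 8/16-cell embryos in DMSO listed RNA of more Hox genes than mouse 2-cell embryos did, across tables that were normalized separately. In DMSO, 19 members averaged at least 1 FPKM in cattle against 5 in mouse, and in FK228 20 against 29. The 38 members without HOXA7 summed to 88.1 and 127 FPKM in the DMSO libraries and 153 and 148 in FK228. Markers of other cell types differed as well: the 10 fibroblast markers in the cattle table summed to 53.7 to 60.1 FPKM in DMSO and 31.1 to 31.7 in FK228, where the mouse DMSO libraries had 1.77 to 2.98 over 9 markers. The 11 cumulus and granulosa markers summed to 21.7 to 26.9 FPKM in DMSO and 31.4 to 34.1 in FK228, the 3 blood markers to at most 0.788 and the 6 sperm markers to at most 8.06. Their part in the Hox levels was not tested. With FK228, 9 members were higher and 2 lower (limma, Benjamini-Hochberg over 12590 genes), where 22.2% of all tested genes were higher and 27.4% lower, and 21 members passed the level filter. The median log2 fold change of the 39 was 0.10, against 0.042 over all genes. Stage and culture differ between the species as well.

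HOXC10 rose most, from 0.0879 and 0.855 FPKM in DMSO to 8.39 and 6.82 in FK228 (2.59 ± 0.29, adjusted p = 0.000224). HOXD11 went from 6.53 and 3.76 to 21.9 and 16.7 (1.75 ± 0.26, adjusted p = 0.000976). These FK228 libraries lay clear of the DMSO ones. HOXA10 went from 1.78 and 2.64 to 10.7 and 5.35 (1.44 ± 0.31, adjusted p = 0.00585), and HOXD8 from 2.16 and 3.74 to 6.87 and 7.96 (1.12 ± 0.25, adjusted p = 0.00698), again without overlap. HOXA7, at 3.74 and 3.41 and then 5.46 and 6.43 FPKM, was called (0.60 ± 0.21, adjusted p = 0.0439), but not after median-ratio scaling (adjusted p = 0.0686), without the level filter (0.0857) or without any single library (0.0736 to 0.21). HOXA5, HOXC9 and HOXD10 were also called higher.

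The members that fell were HOXB4, from 6.75 and 12 FPKM to 2.04 and 3.62 (-1.42 ± 0.31, adjusted p = 0.00589), and HOXB2, from 2.85 and 3.14 to 1.41 and 1.03 (-0.85 ± 0.21, adjusted p = 0.0108). The most abundant member was HOXC13, at 18.2 and 29.3 FPKM in DMSO and 33.6 and 33 in FK228 (0.51 ± 0.23, adjusted p = 0.0981). HOXA4, at 16.2 and 19, then 17.6 and 14.3, HOXA3, at 4.45 and 5.69, then 4.27 and 4.02, HOXA9, at 3.05 and 4.83, then 5.25 and 6.35, and HOXD3, at 5.1 and 9.18, then 4.38 and 3.23, were not called (adjusted p = 0.592, 0.401, 0.14 and 0.0653). Without single libraries the count of higher members was 5 to 7, with 5 when either FK228 library was left out, and the count of lower members 1 to 3, with 1 when FK228 replicate 2 was left out. Of the 29 members that FK228 raised in mouse, 7 were higher, 1 lower and 10 not called in cattle, and 11 were under the cattle level filter. The plot of fold change by gene in both species shows members on both sides of 0 in cattle and above 0 in mouse.

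**Figure D5:**
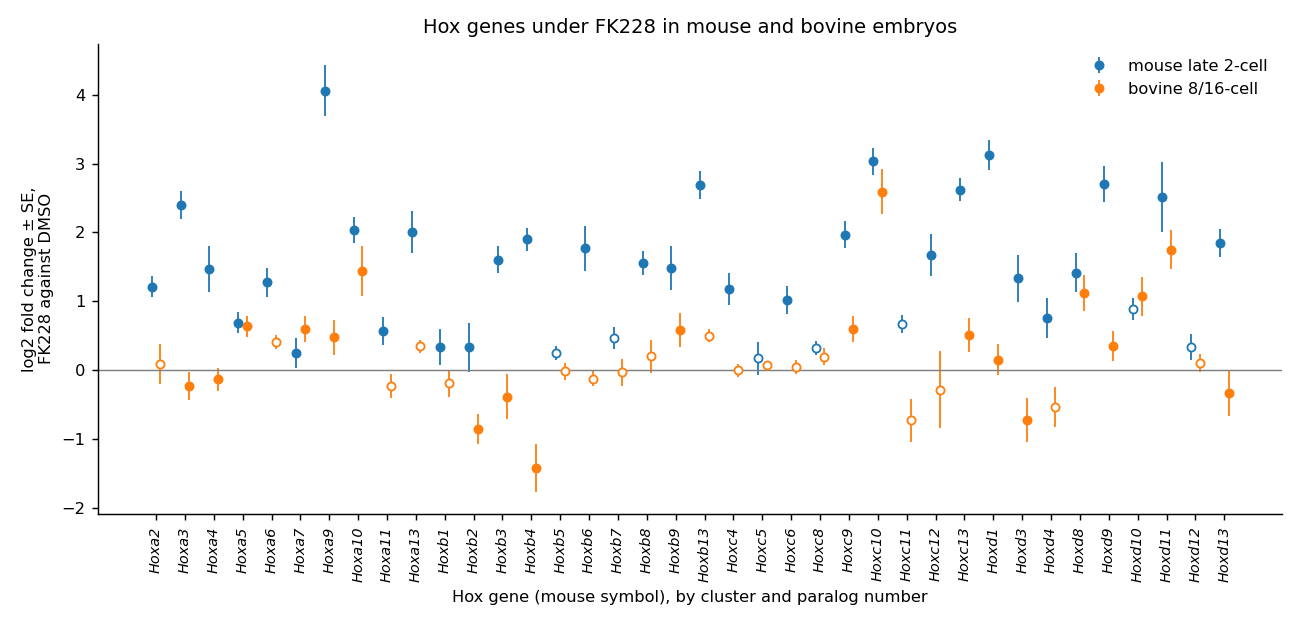
Log2 fold change of FPKM + 1 with FK228 against DMSO (vertical) for 38 Hox genes (horizontal, by cluster and paralog number) in mouse late 2-cell embryos (blue) and cattle 8/16-cell embryos (orange), with SE bars from separate limma fits without a level filter; open points are under the filter. All 38 are above 0 in mouse, while 22 are above and 16 below 0 in cattle.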

How the data were processed

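RNA from whole embryos was sequenced after oligo(dT) selection, and the authors deposited FPKM values per gene, 1 table per species. Per the submitters' processing notes, Trimmomatic, HISAT2, featureCounts, Cufflinks and DESeq2 were used with builds GRCm38 and ARS-UCD1.2; no source used here gives their versions, settings or strandedness. FPKM holds no counts, so the number of reads behind a value is unknown beyond a rough relative depth, and no count test was run. Values were taken as log2(FPKM + 1). Genes at 1 FPKM or more in at least 2 libraries (17336 mouse, 12590 cattle) were fitted with limma 3.58.1 (R 4.3.3; trended empirical Bayes, two-sided, Benjamini-Hochberg over all genes tested, threshold 0.05), with 1 coefficient per group over all 22 mouse libraries (11 residual degrees of freedom) and, separately, the 4 cattle libraries (2). An exact permutation test of 2 against 2 libraries cannot go below p = 0.333. Members and lists were chosen with earlier results of these data known. Values per library are given for members averaging at least 5 FPKM in any group, or at least 2 FPKM in the higher group of a late-stage call. A Hox gene and a Polycomb gene that enter the counts are not reported individually here. Promoters came from RefSeq (GRCm38.p6) and gene positions from GENCODE M21. Python 3.11.15, pandas 2.3.3, numpy 2.4.6 and matplotlib 3.10.9 were used for tables and figures. Alternatives were other pseudocounts, filters and scalings, fits of the compared groups only, a replicate block, and leaving out each library.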

Additional observations from a re-analysis of the deposited data

Results flagged for a closer look

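For 19 of the mouse members reported here, the Hdac1 mutant effect at the late 2-cell stage differed from that at the early stage by an interaction term (limma, adjusted p under 0.05). The differences, late minus early in log2(FPKM + 1), were largest for Hoxd1 (3.13), Hoxa9 (2.92), Hoxd13 (2.73), Hoxb13 (2.48), Hoxd8 (2.38), Hoxc10 (2.25), Hoxa13 (2.14) and Hoxc13 (2.13). They were 1.83 for Hoxa10, 1.73 for Hoxc9, 1.58 for Hoxa3, 1.58 for Hoxb9, 1.48 for Hoxb4, 1.44 for Hoxa4, 1.40 for Hoxa5, 1.34 for Hoxd3, 1.26 for Hoxc12, 1.07 for Hoxd9 and 0.89 for Hoxb3. The differences of Hoxa4, Hoxb3, Hoxb9, Hoxc12, Hoxd3 and Hoxd9 missed the threshold under at least 1 alternative scaling, filter or fit.

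Single members passed the interaction test between treatments, at shares near those of all tested genes. Of the 32 tested members, 2 were called for Hdac1 against FK228 and 1 for Hdac2 against FK228, where 6.97% and 2.08% of all tested genes were. The Hdac1 mutant effect minus the FK228 effect was -1.58 for Hoxd9 and 1.29 for Hoxd13, and the Hdac2 mutant effect minus the FK228 effect was 1.71 for Hoxd13. With only the compared groups in the fit all 3 were lost (limma, adjusted p = 0.109, 0.106 and 0.0639), as they were without DMSO replicate 2 or FK228 replicate 2.

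With FK228, 6 members moved down in both cattle libraries and up in both mouse libraries relative to both DMSO libraries. Their cattle log2 differences were -0.23 for HOXA3, -0.23 for HOXA11, -0.85 for HOXB2, -1.42 for HOXB4, -0.73 for HOXC11 and -0.72 for HOXD3. This difference between the species was not tested, since the tables were fitted separately. By the same measure all 39 members were up in mouse, and in cattle 18 were up and these 6 down. The share of all cattle genes that moved down in this way is not given here. HOXA11 and HOXC11 were under the cattle level filter, and HOXA3 and HOXD3 were not called in cattle.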

How the results depend on the processing

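For the 137 calls of members named in the text, other settings gave 901 values: 845 stayed past the threshold, 56 missed it, and none changed direction. Leaving out single libraries gave 630 values, of which 75 missed it and none changed direction. Whether the library numbers mark pairs cannot be settled with 2 libraries in each group. The correlation of same-numbered deviations lay between -0.059 and 0.233 over tested genes and between -0.298 and 0.295 over tested members. A fit with the replicate block kept all 137 calls and every count of members within 1.5 times. With a minimum of 5 FPKM fewer members were tested: 13 were higher with Hdac1 mutant mRNA, 13 with Hdac2 mutant mRNA, 13 in FK228, 14 with Hdac1 mutant mRNA and water, 12 late against early with mutant mRNA and 12 in the late minus early effect, and 1 was lower in cattle, as was 1 with no filter. With a pseudocount of 0.1, 1 member was higher at the early stage with Hdac1 mutant mRNA, 8 were lower late against early with WT mRNA, 1 was lower with Hdac1 WT mRNA against water, and 3 had a larger and 0 a smaller Hdac1 than FK228 effect; the cause was not tested. Median-ratio scaling gave 1 higher member at the early stage, and quantile normalization 2 lower late against early with mutant mRNA. With only the compared groups fitted, 1 was higher and 8 lower late against early with WT mRNA, 0 and 0 differed between the Hdac1 and FK228 effects, and 0 between the Hdac2 and FK228 effects. Without 1 library at a time, higher members numbered 24 to 28 (Hdac1), 27 to 28 (Hdac2), 26 to 28 (FK228), 26 to 27 (mutant and water), 19 to 26 (mutant late against early), 15 to 24 (late minus early) and 5 to 7 (cattle), lower ones 2 to 4 (WT late against early) and 1 to 3 (cattle), Hdac1 minus FK228 0 to 2 higher and 0 to 4 lower, Hdac2 minus FK228 0 to 1 higher, and Hdac1 minus Hdac2 0 to 2 lower. Counted at 0.5 FPKM, members present averaged 3 (Hdac1 WT), 4.5 (water), 9.5 (DMSO), 6.5 (Hdac2 WT), 11.5 (early mutant), 7 (early WT) and 29.5 (Kdm5b), and at 2 FPKM 1 (water), 2.5 (DMSO), 1.5 (Hdac2 WT), 1.5 (early mutant), 1 (early WT), 15 (mutant and water) and 10.5 (Kdm5b). The median log2 fold change of all tested genes moved from 0.17 to -0.06, from 0.14 to -0.05 and from 0.15 to -0.04 for the Hdac1, Hdac2 and FK228 comparisons under quantile normalization. The read number behind a value is unknown, so a value of 0 gives no upper limit, and 2 libraries a group limit every test.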
